A study of Mus musculus with 6 samples.

Results

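Described here are the cells of control aged mouse lung that held at least 1 Cdkn2a transcript and were not aerocytes by Ednrb, the endothelin receptor gene that marks this capillary type. Members were the barcodes of the 3 control libraries with at least 500 genes, at least 1000 UMIs, at most 15% mitochondrial UMIs, at least 1 Cdkn2a UMI and at most 1 Ednrb UMI, where a UMI (unique molecular identifier) counts 1 captured transcript molecule. They numbered 294 of 44601 retained control barcodes, or 0.659%, and of 88616 retained barcodes in all 6 libraries. Control 1 held 87 of them, control 2 held 92 and control 3 held 115. Because Cdkn2a and Ednrb counts chose the members, both are given below as descriptions without a test.

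All mice were C57BL/6 males of 21 months. Controls had the genotype p16-CreERT2, in which a tamoxifen-activated Cre recombinase is driven by the p16 promoter, and the p16-DTR mice also carried R26-LSL-DTR, a diphtheria toxin receptor switched on by Cre. Both groups, controls included, received tamoxifen (TAM) for 5 days, diphtheria toxin (DT) for 5 days after 2 weeks, and 2 weeks of recovery, with 3 lungs and 3 libraries per group. Each library mixed 20000 CD45-negative and 9000 CD45-positive sorted cells of 1 lung, so the mixture, not the tissue, sets the balance of immune and structural cells.

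Cdkn2a lies on chromosome 4 (89274471 to 89294653, minus strand, GRCm38) and encodes a pair of proteins from different first exons. p16Ink4a binds the cyclin-dependent kinases CDK4 and CDK6 and keeps the retinoblastoma protein active, which holds cells out of the cycle. p19Arf, read in another frame of the shared exon 2, stabilises p53. Polycomb proteins keep the locus silent in most young cells, and its transcript accumulates with age in tissues that include lymphocytes. The 2 annotated protein-coding transcripts start 12461 bases apart and share exon 2 and most of exon 3, so counts taken near the 3′ end do not separate them.

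Most members carried a single Cdkn2a molecule. Of the 294, 198 had 1 Cdkn2a UMI, 49 had 2 and 47 had 3 or more, for 548 UMIs in all. The share with 1 UMI was 67.8% in control 1, 70.7% in control 2 and 64.3% in control 3. Members were deeper than other barcodes: their median total was 25369 UMIs, against 18340 for all retained control barcodes. A deeper barcode is more likely to show a rare transcript, so the tests of class makeup and of genes below used barcodes of the same library and of similar depth that had 0 Cdkn2a UMIs and at most 1 Ednrb UMI. The depths of a member and its comparison barcode differed by up to 2.32 times in the class test. Shares of barcodes with a UMI, and values set against all barcodes of a cluster, were not matched on depth unless stated. The doublet caller marked 35 members (3 of 87, 9 of 92 and 23 of 115 in controls 1, 2 and 3). Of all retained barcodes in these libraries it marked 6.93%, 5.39% and 6.63%, so in control 3 members were marked more often. Marked barcodes were left out of the tests.

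The highest counts were in few cells of few types. The barcode with the most Cdkn2a had 34 UMIs in a total of 68049 and lay in control 3, in a myeloid cluster without a class name, led by Siglech and Cd209a, where it was 1 of 294 eligible barcodes with any Cdkn2a. The next were an adventitial fibroblast-like barcode of control 3 with 13 UMIs, a mesothelial-like barcode of control 1 with 12, and an adventitial fibroblast-like barcode of control 1 with 10. In endothelial clusters no member exceeded 3 UMIs, and in epithelial clusters every one of the 8 members had 1. Of the 9 members with 7 or more Cdkn2a UMIs, 6 were mesenchymal barcodes of control 1.

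**Figure D1:**
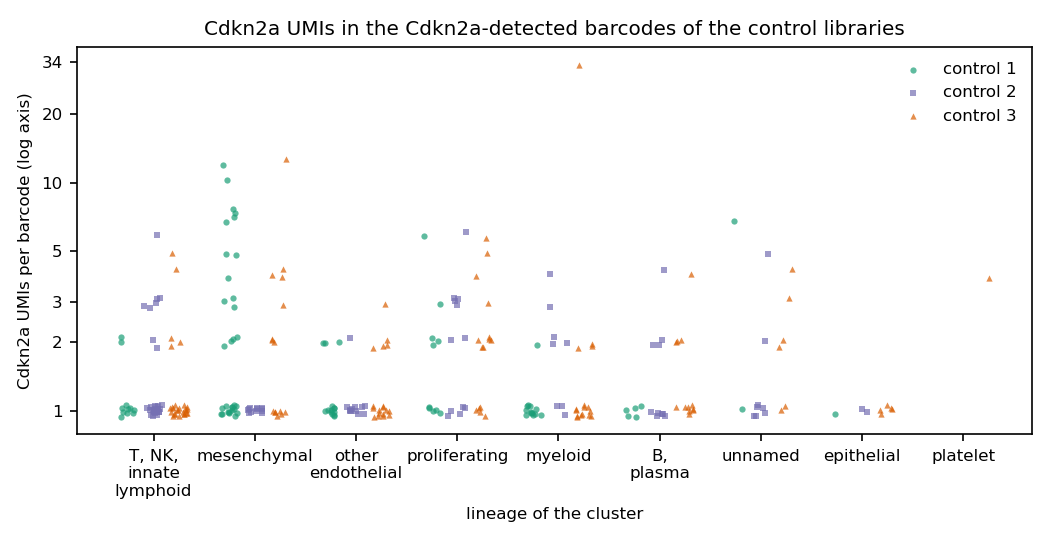
Cdkn2a UMIs per barcode (log axis, with small random offsets so that points do not hide each other) for the 294 members, by lineage of the cluster and by control library. Most points sit at 1 UMI, and the values of 7 and above are in mesenchymal clusters, 1 myeloid barcode with 34 and 1 unnamed barcode.

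The label "non-aerocyte" was set beside the other markers of that cell type. No member fell in an aerocyte-like cluster, a class whose markers include Ednrb. Only 12 of the 1685 control barcodes in those clusters met the Ednrb limit, so the rule nearly fixed this outcome. The 7 aerocyte markers other than Ednrb (Car4, Apln, Fibin, Tbx2, Kitl, Chst1 and Rprml) summed to 230.2, 196 and 136 CPM (UMI counts scaled to a common total) in the members of controls 1, 2 and 3. The Cdkn2a-detected barcodes with more than 1 Ednrb UMI, a group chosen by that gene, had 7355, 8052 and 7381 CPM. Car4, the carbonic anhydrase of aerocytes, had a UMI in 26.3% of 243 members matched by cluster and depth and in 19.1% of their 1093 comparison barcodes. Apln, the apelin ligand, was found in 8.23% of the matched members and in 2.56% of the comparison, and 77.2% of its UMIs in these members were in mesothelial-like barcodes. At the edge of the rule, 9 of 1202 barcodes with exactly 1 Ednrb UMI held Cdkn2a (0.749%), against 7 of 370 with 2 (1.89%) and 336 of 2412 with more than 3 (13.9%). None of the 7 just outside was in an aerocyte-like cluster, and 92.3% of the 336 were.

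Class names below stand for clusters that resemble a class by its markers. Members were spread over many lineages: 66 lay in T, natural killer and innate lymphoid clusters, 58 in mesenchymal, 44 in other endothelial, 37 in proliferating, 37 in myeloid, 27 in B and plasma cell, 8 in epithelial and 1 in platelet clusters, and 16 in clusters without a lineage. The share of barcodes with Cdkn2a differed widely between them. It was 33.0% in the proliferating clusters (37 of 112 eligible barcodes, 95% Wilson interval 25.01 to 42.2), 12.5% in plasma cell-like barcodes (11 of 88, 7.13 to 21.0), 6.21% in conventional dendritic 1-like barcodes (19 of 306, 4.01 to 9.49) and 6.05% in mesothelial-like barcodes (15 of 248, 3.70 to 9.74). The mesothelial share rested on control 1: it was 9.09%, 0% (0 of 43) and 4.11% in controls 1, 2 and 3, and 2.59% (3 of 116) without control 1. CD4 T cell-like barcodes had 3.08% (32 of 1040) and CD8 T cell-like barcodes 2.46% (29 of 1180). Wilson intervals and limits here cover counting error only. These shares and those after thinning include predicted doublets, which were 11 of the 37 members in the proliferating clusters.

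Other classes of the same suspensions held very little. Neutrophil-like barcodes gave 0 of 1861, which allows a share of up to 0.161%, and their median depth was 10115 UMIs; they are used here as the background class for free RNA. The deeper of the 2 neutrophil clusters, with a median of 32907 UMIs, also had 0 of its barcodes with Cdkn2a and a limit of 0.613%. Natural killer-like (0 of 493), nonclassical monocyte-like (0 of 671), lymphatic (0 of 476) and arterial endothelial-like (0 of 453) barcodes had none either. Alveolar fibroblast-like barcodes, the most numerous class, had 18 of 11201 (0.161%, 0.102 to 0.254, or 0.255% without control 1), and alveolar type 2-like barcodes, whose median depth was 44104 UMIs, had 1 of 563 (0.178%). General capillary-like barcodes, the endothelium next to aerocytes, had 35 of 7005 (0.4996%, 0.359 to 0.694).

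The shares fell when each barcode was thinned to 5000 UMIs, which left out 3851 of 41594 eligible control barcodes. The proliferating clusters then had 10.7% (11 of 103, 6.07 to 18.1), mesothelial-like barcodes 3.56% (5.79%, 0% and 1.54% in controls 1, 2 and 3), conventional dendritic 1-like barcodes 1.69%, CD4 T cell-like barcodes 1.22% and CD8 T cell-like barcodes 0.903%. Plasma cell-like barcodes, with a median of 55544 UMIs before thinning, fell to 0 of 85. Alveolar fibroblast-like barcodes had 0.0572% and neutrophil-like barcodes 0. The thinned values rest on 12 or fewer detected barcodes per class, and 16 of 29 classes had none.

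**Figure D2:**
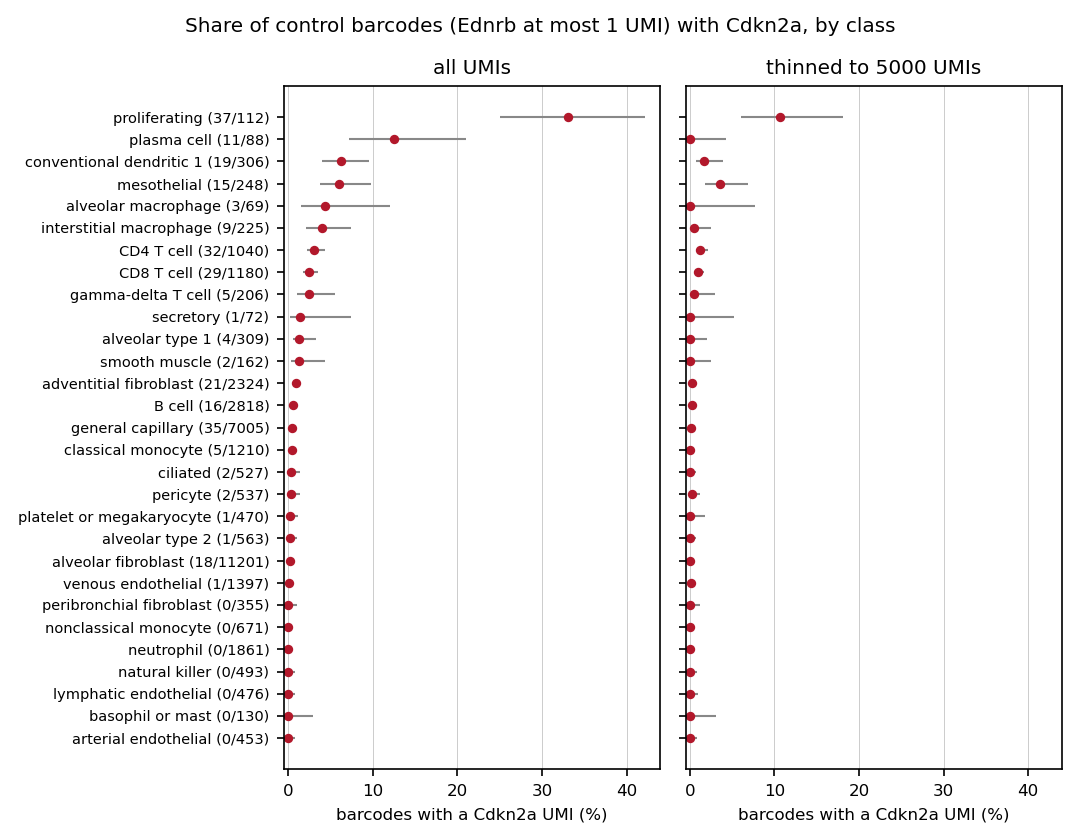
Share of eligible control barcodes (at most 1 Ednrb UMI) with at least 1 Cdkn2a UMI, by class, with all UMIs on the left and after thinning to 5000 UMIs on the right; points are pooled over the 3 libraries and bars are 95% Wilson intervals. Numbers in brackets are members of eligible barcodes, with predicted doublets included. The proliferating clusters lead both panels, at 33.0% and 10.7%, and plasma cell-like barcodes drop from 12.5% to 0.

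To ask which cell types the members over-represent, the classes of the 259 members that were not predicted doublets were set beside those of 2590 depth-matched comparison barcodes, 10 per member. Dividing cells and T cells were over-represented, and parenchymal fibroblasts, alveolar type 2 cells and neutrophils were under-represented. Of 18 classes with enough cells to test, 11 passed the edgeR test at an adjusted p under 0.05 (61.1% of classes tested), 5 higher (27.8%) and 6 lower (33.3%). Each of the 11 moved in the same direction in all 3 libraries. An exact sign-flip permutation test over 3 libraries cannot give a two-sided p below 0.25, and it gave 0.25 for each of them.

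The proliferating clusters showed the greatest excess. They held 11.9%, 13.3% and 5.43% of the members of controls 1, 2 and 3, against 0.476%, 0.602% and 0.435% of comparison barcodes. The groups did not overlap, and the log2 ratio was 4.23 ± 0.59 (SE, n = 3, edgeR adjusted p = 3.3e-07). Predicted doublets included, 37 members lay in these clusters, 10, 12 and 15 in controls 1, 2 and 3. Without predicted doublets the numbers were 10, 11 and 5, so most of the marked ones were in control 3. The 37 lay in 2 clusters. All 26 in the first cluster, led by Hist1h1b, Pclaf and Birc5, had at least 2 UMIs of Cd3e or Trac, which encode T cell receptor components, and so did all 36 Cdkn2a-zero barcodes of that cluster. All 11 in the other, led by Iqgap3, Prc1 and Anln, had at least 2 UMIs of Cldn5 or Cdh5, junction genes of endothelium, as did 34 of its 39 Cdkn2a-zero barcodes. In the first cluster 41.9% of eligible control barcodes held Cdkn2a (26 of 62), and in the other 22% (11 of 50). Of the 37, 11 were predicted doublets, and 8 of the 26 in the T cell cluster also had at least 2 UMIs of the fibroblast genes Dcn or Npnt, against 6 of the 36 Cdkn2a-zero barcodes. For Ccr2 or Xcr1, listed as monocyte or dendritic genes and not counted apart, the numbers were 14 of 26 and 14 of 36. They were 2 and 0 for the macrophage genes C1qa or C1qb. They were 1 and 0 for Cd79a or Jchain of B lineage cells, and 2 and 3 for Cldn5 or Cdh5. The part of doublets in the excess was not tested beyond leaving the predicted ones out.

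Among the classes tested, CD4 T cell-like barcodes came next by log2 ratio, and plasma cell-like barcodes (2.20) stood above CD8 T cell-like ones (1.99). CD4 T cell-like barcodes made up 5.95%, 19.3% and 10.9% of members in controls 1, 2 and 3 and 1.43%, 1.20% and 1.96% of comparison barcodes, without overlap (log2 ratio 2.90 ± 0.50 SE, n = 3, edgeR adjusted p = 1.05e-05). Their cluster was led by Tnfsf8, Tnfrsf4, Ctla4, Izumo1r and Slamf6. CD8 T cell-like barcodes made up 4.76%, 9.64% and 17.4% of members and 1.19%, 2.65% and 4.02% of comparison barcodes (1.99 ± 0.49, adjusted p = 8.91e-04). The CD8 members lay in 3 clusters. In a cluster led by Gzmk and Eomes, genes of antigen-experienced cytotoxic cells, 14 of 316 eligible barcodes were members (4.43%), in one led by Atp8a2 and Il12rb2, 5 of 193 were (2.59%), and in one led by Lef1 and Dapl1, genes of naive cells, 10 of 671 were (1.49%). With clusters tested in place of classes, an alternative chosen after seeing the data, 16 of 26 clusters passed (61.5%), 5 higher (19.2%) and 11 lower (42.3%). The Gzmk cluster was among them (log2 ratio 2.61, edgeR adjusted p = 0.00223), and the Lef1 cluster was not (1.43, adjusted p = 0.0647). The cluster between them had too few members and comparison barcodes for the test, and the difference between the clusters was not tested. Natural killer-like barcodes, cytotoxic cells without a T cell receptor, held 0 of 259 members and 21 of 2590 comparison barcodes, too few for the test.

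Within B lineage cells the members also fell on one side. B cell-like barcodes as a class held 16 members and 147 comparison barcodes, and the class did not pass (log2 ratio 0.09, edgeR adjusted p = 0.868). All 16 lay in 1 cluster, led by Ms4a1, Ly6d and Il5ra, where 16 of 524 eligible barcodes were members (3.05%) and 15 of the 16 came from controls 2 and 3. The larger B cell cluster, led by Ighd, Fcer2a and Cr2, genes of mature follicular and marginal zone cells, had 0 of 2294, a limit of 0.131%. Tested as clusters, the first was higher (log2 ratio 1.48, edgeR adjusted p = 0.0220) and the other lower (0 of 259 members against 92 of 2590, at least 3.07-fold lower by a floor of 3 barcodes pooled over the libraries, adjusted p = 0.00448). The median depths were 15101 and 11832 UMIs. Plasma cell-like barcodes, the antibody-secreting end of the lineage, were 4.76%, 2.41% and 4.35% of members and 1.31%, 1.08% and 0.217% of comparison barcodes (2.20 ± 0.71, adjusted p = 0.0116).

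Conventional dendritic 1-like barcodes lay in a cluster named for cross-presenting dendritic cells, which are marked by Xcr1 and Clec9a. They made up 8.33%, 3.61% and 8.70% of members and 3.21%, 0.482% and 3.26% of comparison barcodes (log2 ratio 1.61 ± 0.55 SE, n = 3, edgeR adjusted p = 0.0131). Of the 18 members there, 9 had an Xcr1 UMI and 9 a Clec9a UMI. Interstitial macrophage-like barcodes did not pass (1.41 ± 0.73, adjusted p = 0.0846): they were 5.95% and 2.41% of members in controls 1 and 2 and equal to the comparison, 1.09%, in control 3.

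Among the classes that fell, alveolar fibroblast-like barcodes went from 24.9% of comparison barcodes to 6.95% of members (18 of 259), with 3.57%, 8.43% and 8.70% in controls 1, 2 and 3 against 29.6%, 23.6% and 21.7% (log2 ratio -1.83 ± 0.45 SE, n = 3, edgeR adjusted p = 8.91e-04). Neutrophil-like barcodes, 127 of the comparison, had no member, which is at least 4.23-fold lower by a floor of 3 barcodes pooled over the libraries. Nonclassical monocyte-like barcodes, 46 of the comparison, had none either (at least 1.53-fold lower). A single member was found in each of alveolar type 2-like (95 in the comparison), venous endothelial-like (80) and ciliated (72) barcodes, for log2 ratios of -3.16, -2.92 and -2.76. Each ratio hung on the library of that member. They were -7.26 and -6.88 for the first 2 without control 3, and -6.88 for ciliated barcodes without control 1.

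General capillary-like barcodes as a class were as frequent among members as in the comparison, at 14.3%, 12.0% and 14.1% against 9.40%, 14.3% and 14.9% (log2 ratio 0.09 ± 0.41 SE, edgeR adjusted p = 0.868). Tested as clusters, the largest was at 0.15 (edgeR adjusted p = 0.729). One led by Lama1 and Vegfc was at -2.29, from 1 member against 52 comparison barcodes, and did not pass (adjusted p = 0.0735). Adventitial fibroblasts and mesothelium depended on the mouse. Adventitial fibroblast-like barcodes, the collagen-rich cells of vessel and airway cuffs, were 15.5% of members in control 1, 4.82% in control 2 and 1.09% in control 3 (comparison 11.1%, 8.55% and 7.93%; log2 ratio -0.51, edgeR adjusted p = 0.383). Without control 1 the class was lower (-1.52, adjusted p = 0.0291). Mesothelial-like barcodes, the lining of the lung surface, were 13 of 259 members and 14 of 2590 comparison barcodes. Of the 13, 12 came from control 1, and the class was too small for the test over 3 libraries. It could be tested without control 3, where control 2 had 0 members and the log2 ratio was 3.63 (edgeR adjusted p = 0.00575), and without control 2, where it did not pass (3.08, adjusted p = 0.147).

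Without control 2, no class passed the edgeR test (0 of 18, with an adjusted p of 0.117 for the proliferating clusters), although every class that passed in the 3 libraries kept its direction. The CD4 T cell-like log2 ratio was then 2.27 (edgeR adjusted p = 0.147). Without control 3, conventional dendritic 1-like (adjusted p = 0.0655), plasma cell-like (0.139), ciliated (0.138) and nonclassical monocyte-like barcodes (0.0879) did not pass the edgeR test. Plasma cell-like barcodes also did not pass with limma on arcsine square root shares (adjusted p = 0.0514), and they were too few to test without control 1. With members held to at least 2 Cdkn2a UMIs, which left 96 before doublets were removed, 8 classes could be tested and none passed, but the 5 classes higher in the main comparison were too small to be among them. Among the 78 members then left, 15 were in the proliferating clusters and 10 were CD4 T cell-like, against 6 and 10 of 780 comparison barcodes. Alveolar fibroblast-like barcodes had a log2 ratio of -3.27 (edgeR adjusted p = 0.0765).

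**Figure D3:**
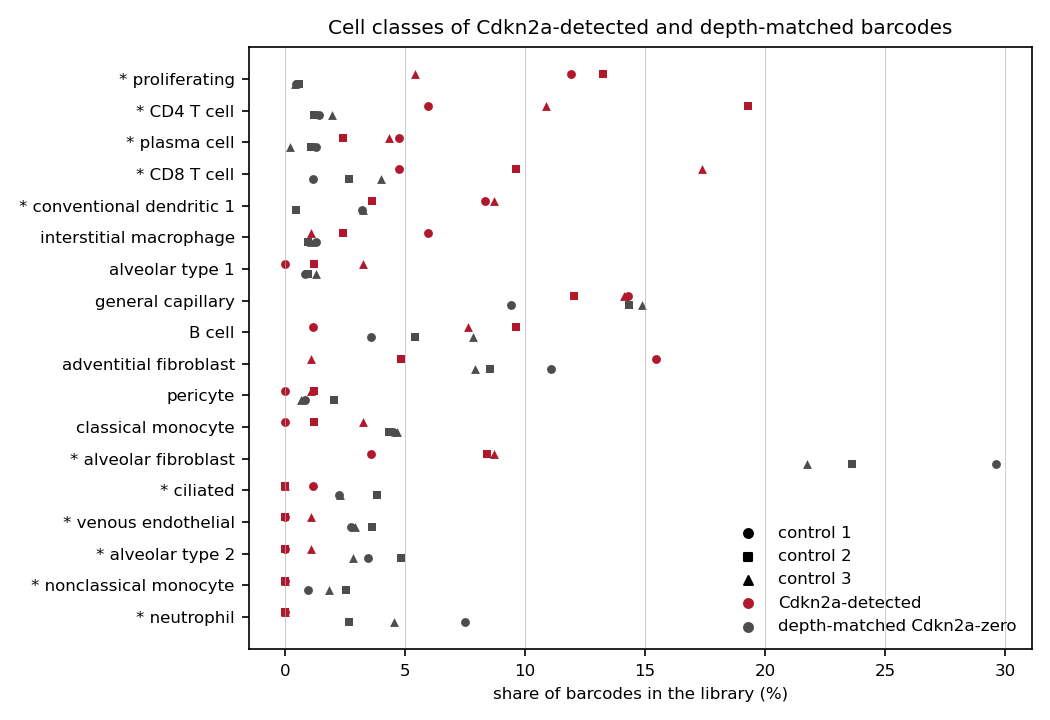
Share of each class (%) among members (red) and among depth-matched Cdkn2a-zero barcodes (grey), with 1 symbol per control library and classes ordered by log2 ratio; an asterisk marks an edgeR adjusted p under 0.05. Red and grey symbols do not overlap for any class with an asterisk, nor for classical monocytes, which did not pass (edgeR adjusted p = 0.0633). The red symbols of adventitial fibroblasts run from 1.09% to 15.5%.

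Gene expression was then compared between 243 members and 1093 comparison barcodes matched on library, cluster and depth, up to 5 for each member, with UMI counts summed per library. Where a gene is said not to overlap between the groups, this describes its values only. The share of all tested genes without overlap is not given, so non-overlap is not evidence of a difference. Across all clusters the members differed from their neighbours in 1 of 13768 genes (0.00726% called, 1 higher and 0 lower), and 1339 genes had an unadjusted p under 0.05. DESeq2 called 86. The called gene was Apol7c, an apolipoprotein L gene of mature dendritic cells, on chromosome 15 (77524852 to 77533316, minus strand). It had 7, 135 and 43 UMIs in the members of controls 1, 2 and 3 and 0, 1 and 1 in the comparison. Levels were 2.80, 64.2 and 16.8 CPM against 0, 0.116 and 0.0872, with no overlap. Pooled, the level was 387 times that of the comparison, and the edgeR adjusted p was 0.0104. The exact counting interval of this ratio, 106 to 3220, covers counting error of the UMIs only and not the spread between cells or mice. The reads came from few cells: 6 of 243 members held the gene, 1 barcode carried 109 of the 185 UMIs, and 89.2% of UMIs were in conventional dendritic 1-like barcodes. No gene passed when the library was not used as a block or when each member had 1 comparison barcode.

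The 5 genes of the mature dendritic marker list (Fscn1, Ccl22, Il4i1, Cacnb3 and Ccr7) had 0 called and a median log2 difference of 2.35, against -0.00 over all genes. Fscn1 encodes fascin, the actin bundler of migrating dendritic cells, and had 36.8, 100.3 and 218 CPM in members of controls 1, 2 and 3 against 8.61, 11.1 and 11.5. Its groups did not overlap (log2 difference 3.28 ± 0.38 SE, edgeR adjusted p = 0.189), and 82.7% of the members' UMIs were in the conventional dendritic 1-like cluster. Il4i1, an amino acid oxidase, had 10.4, 43.7 and 42.5 CPM against 3.52, 6.98 and 3.75 (log2 difference 2.66, adjusted p = 0.189). H2-M2, a nonclassical class I gene that is not on the list and was named for its small p, had 13.2, 30.9 and 19.9 CPM against 3.52, 5.58 and 3.14 (2.36, adjusted p = 0.189). Of the list, Cacnb3 differed by 2.35 (adjusted p = 0.205) and the lymph node homing receptor Ccr7 by 0.93 (adjusted p = 0.227). The chemokine Ccl22 went the other way in control 1 (2.40 against 12.7 CPM). When only members with the full 5 comparison barcodes were used, a setting chosen after seeing the data, 11 genes were called, Fscn1 (adjusted p = 0.0390) and Il4i1 (0.0496) among them.

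Within the conventional dendritic 1-like cluster the 18 members that were not predicted doublets carried 694, 5191 and 3438 CPM of the mature dendritic list in controls 1, 2 and 3. Cdkn2a-zero barcodes of that cluster, 273 in all, carried 883, 393 and 353 CPM. Control 2 contributed 3 members and control 1 went against the others. Fscn1 had a UMI in 8 of the 18 members (44.4%) and in 31 of the 273 others (11.4%), at median depths of 39990 and 39511 UMIs. Clec9a, the marker of resting cross-presenting cells, had one in 9 of 18 (50.0%) and in 215 of 273 (78.8%). Xcr1 had one in 9 of 18 and in 166 of 273 (60.8%). The conventional dendritic 1 markers summed to 2042, 513 and 1942 CPM in members of controls 1, 2 and 3. In the Cdkn2a-zero barcodes they summed to 2424, 2796 and 2676 CPM. These cells were clustered on their own genes and were not tested apart.

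**Figure D4:**
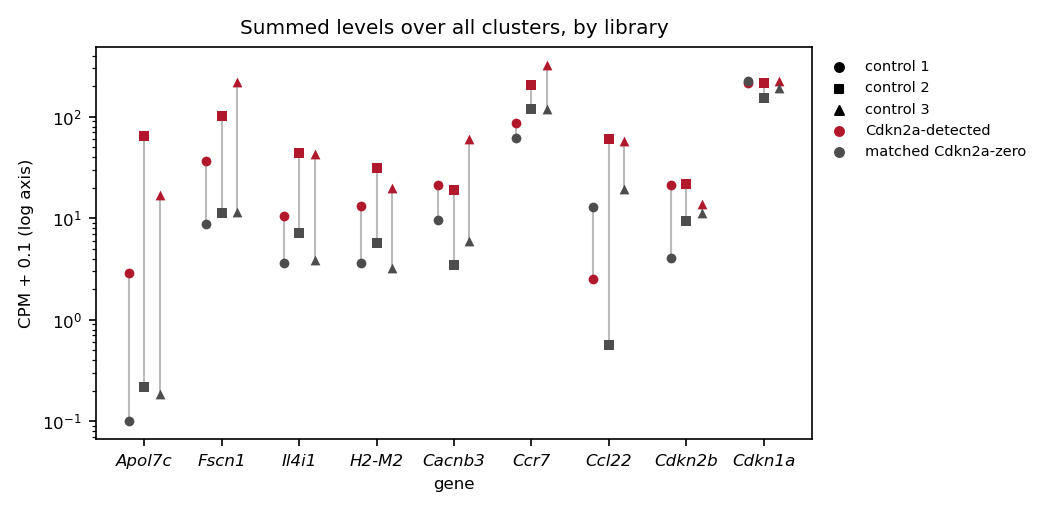
Summed level (CPM + 0.1, log axis) in matched members (red) and comparison barcodes (grey) over all clusters, joined within each control library, for mature dendritic genes and for 2 cell cycle inhibitors. Red lies above grey in all 3 libraries for Apol7c, Fscn1, Il4i1, H2-M2, Cacnb3, Ccr7 and Cdkn2b, and below it in control 1 for Ccl22.

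Cdkn2b, which neighbours Cdkn2a on chromosome 4 (89306299 to 89311039, minus strand) and encodes the related CDK4 and CDK6 inhibitor p15, was higher in members of every library without passing the test. It had 21.2, 21.9 and 13.6 CPM in controls 1, 2 and 3 against 3.91, 9.19 and 11.1, without overlap (log2 difference 1.30 ± 0.39 SE, edgeR adjusted p = 0.384). A UMI was found in 50 of 243 members and in 85 of 1093 comparison barcodes. In mesenchymal clusters, where the gene was below the filter on low counts, it was in 18 of 52 members and in 23 of 253 comparison barcodes, and 15 of these 18 were in control 1. The other inhibitors did not pass either. Cdkn1a (p21) differed by 0.21, Cdkn1b (p27) by -0.09, Cdkn2c (p18) by 0.46 and Cdkn2d (p19Ink4d) by 0.20. Cdkn1c (p57) was lower in members of each library without passing, at 24.4, 12.8 and 8.58 CPM against 43.9, 21.3 and 12.5 (-0.73 ± 0.16 SE, edgeR adjusted p = 0.255). The 6 inhibitors other than Cdkn2a had 0 called and a median log2 difference of 0.21, against -0.00 over all genes.

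Cdk4 differed by 0.09 ± 0.10 and Cdk6 by 0.01 ± 0.08 on the log2 scale, and the retinoblastoma gene Rb1 by 0.22, Ccnd2 by 0.29 and Ccnd3 by -0.00. None of the 15 genes of the retinoblastoma pathway passed (median 0.26, or -0.08 when only members with 5 comparison barcodes were used). Of 15 measured Polycomb genes and other regulators of the locus, 0 passed (median 0.04), with Ets1 at -0.12, Runx1 at 0.08 and Kdm6b at -0.11. The 18 p53 targets had 0 calls and a median of 0.16, with Btg2 at -0.23, Trp53inp1 at 0.03 and Plk2 at -0.11.

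Proliferation genes had a list median of 0.72 over 17 genes with 0 called. Mki67 had 328, 251 and 56.9 CPM in members against 127, 159 and 39.9 (0.87 ± 0.17, edgeR adjusted p = 0.230), Stmn1 differed by 0.89 and Hmgb2 by 0.55. The proliferating clusters offer few Cdkn2a-zero barcodes of matching depth, and 16 members there had only 22 comparison barcodes. With 5 comparison barcodes for every member the list median was -0.22. Outside the proliferating clusters Mki67 had a UMI in 49 of 227 members (21.6%) and in 148 of 1071 comparison barcodes (13.8%).

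Of 34 genes of the senescence secretome, 32 could be tested, 0 passed, and the median log2 difference was -0.21, against -0.00 over all genes. Ccl5 differed by 0.40, Igfbp7 by -0.10 and Igfbp5 by -1.82 (adjusted p = 0.493). The 20 dissociation stress genes had 0 calls and a median of -0.19, with Junb at -0.17, Fos at -0.30 and Jun at -0.14. Fibroblast activation genes had 0 of 11 called (median -0.10; Ly6a 0.06, Fn1 0.28, Col3a1 -0.02), endothelial activation genes 0 of 13 (median -0.26; Sparcl1 -0.26, Thbd -0.24, Icam1 0.10) and alveolar epithelial transition genes 0 of 9 (median -0.92; Lgals3 -0.10, Ctgf 0.36, Krt19 -1.48 with adjusted p = 0.189). T cell effector and exhaustion genes had 0 of 19 called (median 0.16; Cd44 0.04, Ctla4 -0.07, Tox 0.07) and naive T cell genes 0 of 8 (median -0.29; Klf2 -0.18, Il7r -0.15, Satb1 -0.34).

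The remaining genes of smallest p over all clusters were Matn2, a matrix gene (log2 difference 2.03), and Trpc6, a cation channel of pericytes (-3.52, edgeR adjusted p = 0.189 for both). Trpc6 had 1, 5 and 6 UMIs in members and 4, 270 and 342 in the comparison of controls 1, 2 and 3, and 96.1% of the latter were in pericyte-like barcodes, of which only 2 were members. tdTomato, a reporter sequence listed among the features, had 0 UMIs in every control library. In p16-DTR libraries 1, 2 and 3 it had 89, 75 and 94 UMIs.

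T, natural killer and innate lymphoid clusters gave 62 matched members (11, 24 and 27) and 304 comparison barcodes, and this was the lineage with the most calls, 9 of 7598 genes (0.118% called), 4 higher (0.0526%) and 5 lower (0.0658%). Cdkn1a, on chromosome 17 (29090976 to 29100727, plus strand), encodes p21, a cell cycle inhibitor downstream of p53. It had 143, 246 and 101 CPM in members of controls 1, 2 and 3 against 85.1, 84.9 and 40.2 (log2 difference 1.26 ± 0.20 SE, edgeR adjusted p = 0.0461). All 3 members' values were above all 3 comparison values, and 76.8% of the members' UMIs were in CD4 T cell-like barcodes. Serpinb6b, a protease inhibitor of cytotoxic lymphocytes, had 107, 123 and 202 CPM against 46.8, 45.0 and 85.1 (1.30, adjusted p = 0.0415). Zeb2, a transcription factor of terminal effector T cells, had 368, 298 and 280 CPM against 169, 174 and 105 (1.10, adjusted p = 0.0438). Neither of these overlapped between the groups, which is not separate evidence for genes named because they were called.

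The fourth gene that rose was Npnt, nephronectin, a matrix gene and marker of alveolar fibroblasts. It had 159, 135 and 19.1 CPM in members against 23.4, 25.9 and 10.1, with overlap between the groups (log2 difference 2.14, edgeR adjusted p = 0.0496). Markers of other cells did not all move with it. The 5 other alveolar fibroblast markers summed to 35.9, 46.2 and 45.9 CPM in members of controls 1, 2 and 3 and to 81.4, 51.1 and 51.6 in the comparison, lower in members of each library, with 4 detected in members and Scube2 at 0. The 8 adventitial fibroblast markers were also lower in members of each library (66.6, 87.4 and 111 CPM against 125, 88.3 and 112, with Cd248 at 0). The 8 general capillary markers summed to 61.5, 751 and 51.6 CPM in members and to 47.4, 200.3 and 46.5 in the comparison, higher in members of each library, with all 8 detected. A list of 5 genes shared by endothelial cells had 128, 629 and 103 CPM against 207, 325 and 212, higher in control 2 and lower in controls 1 and 3. Classical monocyte markers went both ways (1009, 219 and 564 CPM against 619, 358 and 615), with F13a1 at 0 in members and Vcan at 0 in the comparison. Interstitial macrophage markers had 35.9, 14.6 and 22.9 CPM against 23.7, 10.8 and 17.6, higher in members of each library, with C1qb, C1qc and Ms4a7 at 0. Neutrophil markers had 61.5, 151 and 65.0 CPM against 55.6, 52.1 and 41.1, and the 6 proliferation markers 318, 206 and 143 against 81.4, 88.3 and 124, both higher in members of each library. The 8 alveolar macrophage markers were all at 0 in members. The part of such RNA in the calls was not tested.

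Of the genes that fell, 4 are described. Dusp10, a phosphatase of p38 and JNK kinases, had 184, 73.2 and 93.4 CPM in members against 381, 297 and 276 (-1.55 ± 0.19 SE, edgeR adjusted p = 0.0358). Slamf6, a receptor of less differentiated T cells, had 66.5, 123 and 97.2 against 151, 247 and 194 (-1.04, adjusted p = 0.0496). Igfbp4, an insulin-like growth factor binding protein gene that is expressed by naive T cells and stands in the senescence secretome list, had 0, 16.5 and 1.91 CPM against 103, 77.1 and 64.0 (-3.45, adjusted p = 0.0437), from 8 UMIs in members and 410 in the comparison. Adk, adenosine kinase, fell by 1.48 (edgeR adjusted p = 0.0461). None of these 4 overlapped between the groups, which is not separate evidence, as being called is why they were named.

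Among the listed genes of this lineage, the naive T cell list had 0 of 8 called and a median log2 difference of -0.58, against 0.00 over all genes, with Klf2 at -0.58, Satb1 at -0.27 and Il7r at -0.21. The effector and exhaustion list had 0 of 17 called and a median of 0.09, with Tox at -0.07, Ctla4 at 0.17 and Nkg7 at 0.28. Mki67 had 148, 66.2 and 64.8 CPM in members against 19.1, 14.5 and 33.6 without passing (1.90 ± 0.36, edgeR adjusted p = 0.0989). Cdk6 differed by 0.61 (adjusted p = 0.474), Cdk4 by 0.14 and Bax, a p53 target, by 0.56. Without control 2, with predicted doublets kept (65 members) or with no library block, no gene passed in this lineage, and without control 3 there were 186.

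**Figure D5:**
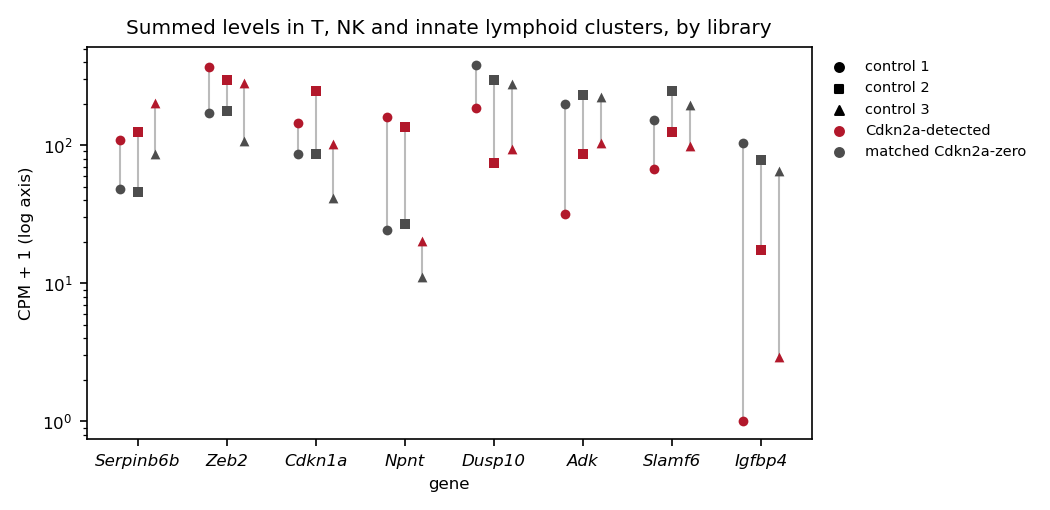
Summed level (CPM + 1, log axis) of 8 called genes in members (red) and comparison barcodes (grey) of the T, natural killer and innate lymphoid clusters, joined within each control library. Red is above grey in all 3 libraries for Serpinb6b, Zeb2, Cdkn1a and Npnt and below it for Dusp10, Adk, Slamf6 and Igfbp4. The same direction in all 3 libraries was a condition for naming called genes from outside the fixed lists, so it is not a further result.

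Mesenchymal clusters gave 52 matched members (28, 12 and 12) and 253 comparison barcodes, and 0 of 10393 genes passed the edgeR test (0% called), with 582 at an unadjusted p under 0.05 and 14 called by DESeq2. The genes of smallest p were Pde5a (log2 difference -1.56), Clstn2 (-4.56), Trpc6 (-3.37), Cilp (-3.81) and Cp (0.90), each with an edgeR adjusted p of 0.145. Cp encodes ceruloplasmin, the copper-carrying ferroxidase, and had 2651, 3260 and 3082 CPM in members of controls 1, 2 and 3 against 1609, 1780 and 1428, without overlap. Pde5a, the cyclic GMP phosphodiesterase of contractile cells, had 23.2, 170 and 174 CPM against 63.1, 541 and 504, and 61.1% of the comparison's UMIs were in pericyte-like barcodes. Apln had 70, 5 and 6 UMIs in members against 85, 0 and 0 (log2 difference 2.81, adjusted p = 0.641). The fibroblast activation list had 0 of 11 called (median -0.61; Col3a1 0.22, Fn1 0.43, Col1a1 0.22) and the senescence secretome 0 of 23 (median -0.01; Igfbp7 0.29, Timp2 -0.14, Igfbp5 -2.11), while Cdkn1a differed by 0.35.

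Endothelial clusters other than aerocyte-like ones gave 44 matched members (14, 12 and 18) and 220 comparison barcodes. No gene of 7609 passed the edgeR test (0% called), 367 had an unadjusted p under 0.05, and DESeq2 called 0. The genes of smallest p were Mid1 (log2 difference -1.37, adjusted p = 0.140), the immediate early gene Egr1 (-0.70), the tetraspan gene Emp2 (1.49), the mTOR-binding Deptor (1.62) and the inflammatory caspase Casp4 (-1.62). Deptor had 60.9, 60.3 and 72.0 CPM in members against 20.2, 19.0 and 23.4, an even difference in the 3 libraries (adjusted p = 0.264). Car4 had 264, 307 and 168 CPM against 198, 200 and 169 (0.33, adjusted p = 0.988), Cdkn1a differed by -0.26, and Apln was in 5 of 44 members and 9 of 220 comparison barcodes. The endothelial activation list had 0 of 9 called (median 0.03), with Plvap at 0.44, Edn1 at 0.30 and Thbd at 0.04. The senescence secretome list had 0 of 8 called (median -0.06). Myeloid (31 matched members), B and plasma cell (26) and epithelial (6) clusters had fewer than 10 matched members in at least 1 library and were not fitted.

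In the p16-DTR libraries the same rule took in far more barcodes, 1011, 1225 and 1216, or 3452 in all, and they lay in every class. Neutrophil-like barcodes, at 0 in controls, had Cdkn2a in 3.59% (92 of 2565), B cell-like barcodes in 15.7%, alveolar fibroblast-like barcodes in 7.97% and the proliferating clusters in 40.4% (57 of 141). The background class is thus not at 0 there, and the source of these UMIs was not tested. Against depth-matched barcodes, 13 of 30 classes passed there (43.3% called), 8 higher (26.7%) and 5 lower (16.7%), with proliferating (log2 ratio 2.78), CD8 T cell-like (1.44), CD4 T cell-like (1.05), plasma cell-like (2.47) and conventional dendritic 1-like barcodes (1.09) higher, the 5 classes that were also higher in controls. The other 3 that were higher were B cell-like (1.16), alveolar macrophage-like (1.76) and ciliated barcodes (1.02), and the ciliated class was lower in controls (-2.76). Neutrophil-like (-1.30), general capillary-like (-0.95), arterial (-1.52) and venous endothelial-like (-0.93) and pericyte-like barcodes (-1.64) were lower. Alveolar fibroblast-like barcodes, lower in controls, did not pass (-0.09, edgeR adjusted p = 0.739). The difference between the groups was not tested for classes.

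For genes, 1351 of 18377 passed in the p16-DTR libraries (7.35% called), 610 higher (3.32%) and 741 lower (4.03%), but only 4 of 17802 (0.0225%) when members with fewer than 5 comparison barcodes were left out, and 2 of 16843 (0.0119%) with 1 comparison barcode per member. With no library block, 0 passed. By size, the genes that rose in the larger set included Ighg2b, Hist1h2bm, Tm4sf5, Hist1h3c, Hist1h2af, Car10, Dscaml1 and Pbk, and those that fell included Slurp1, Scgb3a1, Scgb3a2, Ppbp, Gm20089, Lyz1, Mageb18 and Angptl7. Of these 16, Lyz1 alone passed with 5 comparison barcodes each, and Ighg2b changed sign (2.43 in the larger set, -4.32 with 5 comparison barcodes, -0.76 with predicted doublets kept and -0.90 with at least 2 Cdkn2a UMIs). The 4 genes with 5 comparison barcodes each, looked up after the count was known, were Lyz1, a lysozyme gene (log2 difference -2.64, edgeR adjusted p = 1.93e-04), Mki67 (1.29, adjusted p = 0.0392), Grip1 and Retnlg, and the 2 with 1 comparison barcode were Fscn1 and Retnla. Mki67 was at -0.0011 with 1 comparison barcode.

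The 5 genes of the mature dendritic marker list were called in the larger p16-DTR set, where 3.32% of all genes were called higher: Fscn1 rose by 1.28 on the log2 scale (edgeR adjusted p = 0.0103), Cacnb3 by 0.87 (0.0141), Il4i1 by 0.84 (0.0228), Ccl22 by 0.70 (0.0217) and Ccr7 by 0.41 (0.0126). With 5 comparison barcodes each, 0 of the 5 passed (Fscn1 0.89, adjusted p = 0.333), and Ccl22 was at -0.49. H2-M2, not on the list, differed by 1.16 in the larger set (adjusted p = 0.0304). Apol7c differed by 1.63 (adjusted p = 0.225). Cdkn2b differed by 0.52 and Cdkn1a by -0.15, neither passing. Over all clusters of these libraries Serpinb6b differed by 0.15, Zeb2 by -0.02 and Dusp10 by 0.08, and none passed. Lymphoid clusters of the p16-DTR libraries were not fitted apart, so these values do not repeat the lymphoid comparison of the controls. The difference between p16-DTR and control libraries passed for 1 of 15901 genes (0.00629% called), Trpc6, and for Fscn1 its adjusted p was 0.158.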

How the data were processed

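Single-cell RNA was counted as UMIs per gene and barcode in 6 libraries (10x GEM-X 3′), with 254200305 to 344421685 UMIs each. The deposited counts are raw; the submitters' processing notes name Cell Ranger 8.0.1 and mm10. Members and gene lists were chosen with earlier results of these data known. Python 3.11.15 with scanpy 1.11.5 and leidenalg 0.10.2 clustered all 6 libraries together (2000 variable genes, 40 components, resolution 1.5, 66 clusters), and clusters were named from marker lists. Predicted doublets (5.39% to 6.93% of a library, from simulated doublets) were left out of tests. Each member received up to 5 Cdkn2a-zero barcodes of its library and cluster, or 10 of its library for classes, of similar depth. Gene counts summed per library were tested with edgeR 4.0.16 (quasi-likelihood, TMM, filter on low counts, Benjamini-Hochberg adjustment). The library was a replicate block, since both sums come from 1 mouse, and DESeq2 1.42.0 was an alternative. Numbers of cells per class were tested with edgeR and the same block but without TMM, for classes with a mean of at least 5 cells. Class log2 ratios thus compare shares of a total, so a rise in some classes lowers others. Genes named were the called genes of largest log2 difference, up to 8 a direction. These had to change the same way in all 3 libraries and hold at least 10 UMIs in the higher sums. Where fewer than 3 were called, the 5 of smallest p were named. From each list the called genes and the 3 of highest level were named, and so were fixed ones such as Cdkn2b and Cdkn1a. Library pairs shared 59 to 94 barcode sequences, and no member was shared between controls. On simulated counts with 200 changed genes, recovery was counted among those that passed the filter on low counts. Over all clusters 88 of 96 4-fold (91.7%) and 41 of 96 2-fold changes (42.7%) were recovered, with 5 false calls among 14061 genes. In the lymphoid clusters 67 of 85 (78.8%) and 17 of 82 (20.7%) were, with 0 false calls among 7526. The simulation used 1 fixed dispersion and the same mean in all libraries, and it held no barcodes of extreme count, so recovery in the real counts can differ. A called lymphoid gene is not reported here.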

Additional observations from a re-analysis of the deposited data

Results flagged for a closer look

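For Trpc6 the difference between members and comparison barcodes was not the same in the 2 groups of libraries, by an edgeR test of the difference itself over 3 control and 3 p16-DTR libraries (3.89 on the log2 scale, SE 0.32, adjusted p = 0.0262). In controls the log2 difference was -3.52, and in p16-DTR libraries it was 0.30. The control value rests on pericyte-like barcodes, which held 96.1% of the comparison's Trpc6 UMIs and 2 members. Without replicate 2, without replicate 3 or at Leiden resolution 0.8, no gene passed this test, and with 1 or with 5 comparison barcodes per member other genes passed and Trpc6 did not.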

How the results depend on the processing

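Counts of called genes over all clusters (1) became 86 with DESeq2, 227 with no filter on low counts, 0 with no replicate block, 9 to 42 without 1 replicate, 0 with 1 comparison barcode, 49 with predicted doublets kept, 0 with at least 2 Cdkn2a UMIs and 11 with 5 comparison barcodes each. Endothelial counts (0) became 32 with no filter and 5 to 15 without 1 replicate. Mesenchymal counts (0) became 14 with DESeq2, 310 with no filter, 0 to 5 without 1 replicate and 1 with 5 comparison barcodes (Kcnq5); at least 2 Cdkn2a UMIs could not be fitted. Lymphoid counts (9) became 16 by library size alone, 14 with DESeq2, 191 with no filter, 0 with no replicate block, 0 to 186 without 1 replicate, 2 with 1 comparison barcode (Tmeff2 and Igfbp4), 0 with doublets kept, 14 with 0 Ednrb UMIs, 0 with at least 2 Cdkn2a UMIs and 21 at Leiden resolution 0.8. The p16-DTR count (1351) became 0 with no replicate block, 524 to 629 without 1 replicate, 2 with 1 comparison barcode, 50 with at least 2 Cdkn2a UMIs, 4 with 5 comparison barcodes and 686 without proliferating clusters. The difference between groups (1) became 3 by library size, 35 with no filter, 4 with 1 comparison barcode, 6 with doublets kept, 15 with at least 2 Cdkn2a UMIs, 0 at resolution 0.8, 14 with 5 comparison barcodes and 0 to 5 without 1 replicate; DESeq2 and no block were not run for it. Called classes (11) became 0 to 11 without 1 replicate, 0 with at least 2 Cdkn2a UMIs (8 classes tested, none of the 5 higher ones) and 4 with broad lineages. Members numbered 259 without predicted doublets. The median share over classes, 0 after thinning to 5000 UMIs, was 0.4996% not thinned and 0.351% thinned to 10000, and the proliferating share was 33.0% not thinned. Among p16-DTR genes, signs turned for Ighg2b (-0.759 with doublets kept, -0.905 with at least 2 Cdkn2a UMIs, -4.32 with 5 comparison barcodes), Mki67 (-0.0011) and Cp (0.0519) with 1 comparison barcode, and Car4 (0.0044), Slamf6 (-0.0414) and Ccl22 (-0.486) with 5. The causes were not tested. Settings with 5 comparison barcodes, without proliferating clusters and with lineages or clusters in place of classes were chosen after seeing the data.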
